A study of Mus musculus with 18 samples.

Results

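The regions described here are the 1 kb windows of the mouse autosomes where 5 histone marks were all high at the same time. A window was taken when its linear value was 4 or more times the autosomal mean of its library in each of 10 untreated libraries, 2 for each of H3K27me1, H3K27me2, H3K27me3, H3K36me2 and H3K36me3. Of 2462736 non-overlapping autosomal windows, 122 were chosen by these untreated values. Levels below are given as multiples of the library's autosomal mean unless a spike-in scale is named. The rule used the untreated values, which are therefore a description and carry no test. The DMSO and inhibitor libraries were not used by the rule.

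Chromatin for all libraries was taken from E14 cells, a line of pluripotent mouse embryonic stem cells, kept in 2i/LIF medium, and was precipitated and sequenced (ChIP-seq). The 5 untreated groups had no spike-in. In 4 further groups of 2 libraries each, H3K27me3 or H3K36me2 was precipitated from cells kept for 7 days in the solvent DMSO or in EPZ-6438 (10 µM), which blocks the methyltransferase EZH2 (EZH2i), and Drosophila S2 chromatin made up 0.05% of the total as a spike-in. All groups share this wild-type line and medium, and the labels do not say that the 2 libraries of a group came from separate cultures, so p-values measure the spread between these libraries.

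EZH2 is the catalytic subunit of Polycomb repressive complex PRC2, which methylates lysine 27 of histone H3. H3K36me3 is laid down over transcribed gene bodies and H3K36me2 over broader domains, and nucleosomes methylated at lysine 36 are poor substrates for PRC2, so that H3K27me3 and the K36 marks usually occupy different chromatin. Ribosomal RNA genes and the satellite sequence around mouse centromeres are held in many copies by the cell and in few by the assembly, and loci of this kind are commonly left out of ChIP-seq analyses as high-signal regions. Copy number and repeat content of the windows were not analysed here, since no whole genome sequence and no repeat annotation were used.

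The 122 windows formed 21 clusters when windows up to 10 kb apart were joined. Of the windows, 108 lay next to another one, and 10 clusters were a lone window. On 9 of 19 autosomes there was none. Chromosome 11 held 74 windows, chromosome 17 held 14, chromosome 9 held 11 and chromosome 2 held 6. Mouse chromosomes are acrocentric, and the assembled sequence starts beside the centromere. Within 250 kb of the first window with a read on their chromosome lay 87 of the 122 windows (71.3%), in 6 clusters, against 0.193% of all autosomal windows, but chr11:3127001-3200000 supplied 72 of the 87. Outside that cluster 15 of 50 windows (30%) lay there.

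The largest cluster, at chr11:3127001-3200000 (build mm10), held 72 windows. It covered most of Sfi1, which codes for a centrin-binding protein of the centrosome, with 69 of the gene's 73 windows among the 122. It also covered 4 of the 8 windows of Pisd-ps1, a transcribed pseudogene of the phosphatidylserine decarboxylase gene Pisd. The lncRNA gene Gm33862 and the pseudogenes Gm11400 and Fau-ps2 lay wholly inside it. This cluster is called chr11 Sfi1.

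The cluster chr17 Rn18s-rs5, at chr17:39843001-39849000, held 6 windows. Of these, 3 overlapped Rn18s-rs5, an 18S ribosomal RNA related sequence, and 1 of them also overlapped the lncRNA gene AY036118. The other 3 held no gene of the RefSeq table used here. Clusters with no gene in that table are called by their chromosome and a letter, such as chr2-A at chr2:98662001-98668000 with 6 windows. The others of 3 or more windows without a gene were chr9-B at chr9:3015001-3033000 with 7, chr14-A at chr14:19415001-19420000 with 5, chr9-A at chr9:3000001-3003000 with 3 and chr15-A at chr15:75085001-75088000 with 3. The cluster chr1 Sp110, at chr1:85591001-85594000 with 3 windows, lay where Sp110 and Sp140 overlap; both code for nuclear body proteins of the SP100 family. The cluster chr17 Pisd-ps2, at chr17:3077001-3083000, held 3 windows in another Pisd pseudogene, and chr11 BC018473, at chr11:116753001-116755000, held 2 in a lncRNA gene.

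The remaining 11 clusters held 1 or 2 windows each. They were chr1 Mroh2a at chr1:88258001-88259000, which also touches Hjurp, the chaperone gene of the centromeric histone CENP-A, chr1 Aida at chr1:183299001-183300000, chr9 Gm33838 at chr9:35305001-35306000 and chr10 Gm5421 at chr10:22344001-22345000. On chromosome 12 they were chr12-A at chr12:3110001-3111000 and chr12-B at chr12:20230001-20231000. On chromosome 17 they were chr17 9630028I04Rik at chr17:27237001-27238000, chr17-A at chr17:27256001-27257000, chr17-B at chr17:27385001-27387000 and chr17-C at chr17:36061001-36062000. The last was chr18-A at chr18:3009001-3010000. Those outside the naming rule (chr1 Aida, chr9 Gm33838, chr12-A, chr12-B, chr17-C and chr18-A) are named after their values were seen.

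Genes of the RefSeq table were present at 88 of the 122 windows (72.1%), against 49.5% of all autosomal windows, but chr11 Sfi1 supplied 72 of the 88. Outside it 16 of 50 windows (32.0%) touched a gene and 5 of 50 (10.0%) a protein-coding gene, against 40.7% of all windows for the latter. The 17 genes touched were 6 protein-coding genes, 5 lncRNA genes, 4 pseudogenes and 2 transcribed pseudogenes. In 11 clusters there was no gene of that table. The table lacked some of the genes listed below for repeated sequence, so these counts depend on it.

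Of the promoters in the RefSeq table of build GRCm38.p6, the one that lay in these windows belonged to Gm33862, inside chr11 Sfi1, and it is printed to show the sequence under the 2 windows it lies across. It spans chr11:3136826-3137125 on the plus strand, and CG dinucleotides are in capitals.
Gm33862 promoter: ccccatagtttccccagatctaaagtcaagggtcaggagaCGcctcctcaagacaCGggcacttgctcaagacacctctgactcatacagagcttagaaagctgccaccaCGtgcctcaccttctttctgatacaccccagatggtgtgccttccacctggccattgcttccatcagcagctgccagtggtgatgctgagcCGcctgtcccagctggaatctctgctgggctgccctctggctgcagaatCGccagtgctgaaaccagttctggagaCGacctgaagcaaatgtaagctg
It holds 6 CG dinucleotides, a motif that reads the same on both strands, and 47.9% of the 32851 promoters of this length hold as many or fewer. Its GC content was 55.7%, against a median of 52.7%. No other gene's promoter in the table shared a run of 30 bases with it on either strand. The nearest gene with a printed sequence beside the chromosome 9 clusters was Mir101c, whose mature miRNA lies at chr9:3038680-3038698 on the minus strand, past the end of chr9-B and outside the 122 windows; its seed, bases 2 to 8, is in capitals.
mmu-miR-101c: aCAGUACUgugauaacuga
H3K27me3 in its window was 2.78 and 3.14 times the library mean after DMSO and 10.1 and 8.47 times after EZH2i, on 4 and 6 reads in the latter.

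In untreated cells the mean levels of the 5 marks over the 122 windows lay between 24.8 and 29.3. H3K27me1 had a mean level of 29.3 ± 0.31, H3K27me3 of 28.6 ± 0.66 and H3K27me2 of 26.2 ± 2.15, and the K36 marks lay at 25.4 ± 3.68 (H3K36me2) and 24.8 ± 0.60 (H3K36me3; SD, n = 2 libraries). Single windows ranged from 4.29 to 126 for H3K27me3 and from 4.64 to 119 for H3K36me3. The mark with the highest level in a window was H3K36me3 in 34 windows, H3K27me3 in 33, H3K27me1 in 29, H3K27me2 in 14 and H3K36me2 in 12. These values differed between chr11 Sfi1 and the rest: H3K36me3 was the highest mark in 6 of its 72 windows and in 28 of the other 50. In those 50 the mean was 26.4 ± 0.68 for H3K36me3, 24.8 ± 1.07 for H3K27me3, 22.5 ± 0.93 for H3K27me1, 15.6 ± 2.59 for H3K36me2 and 15.1 ± 2.30 for H3K27me2 (SD, n = 2). Across the 122 windows, which share libraries, the Spearman rho between marks ran from 0.346 (H3K27me2 and H3K36me3) to 0.853 (H3K27me1 and H3K27me2).

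**Figure D1:**
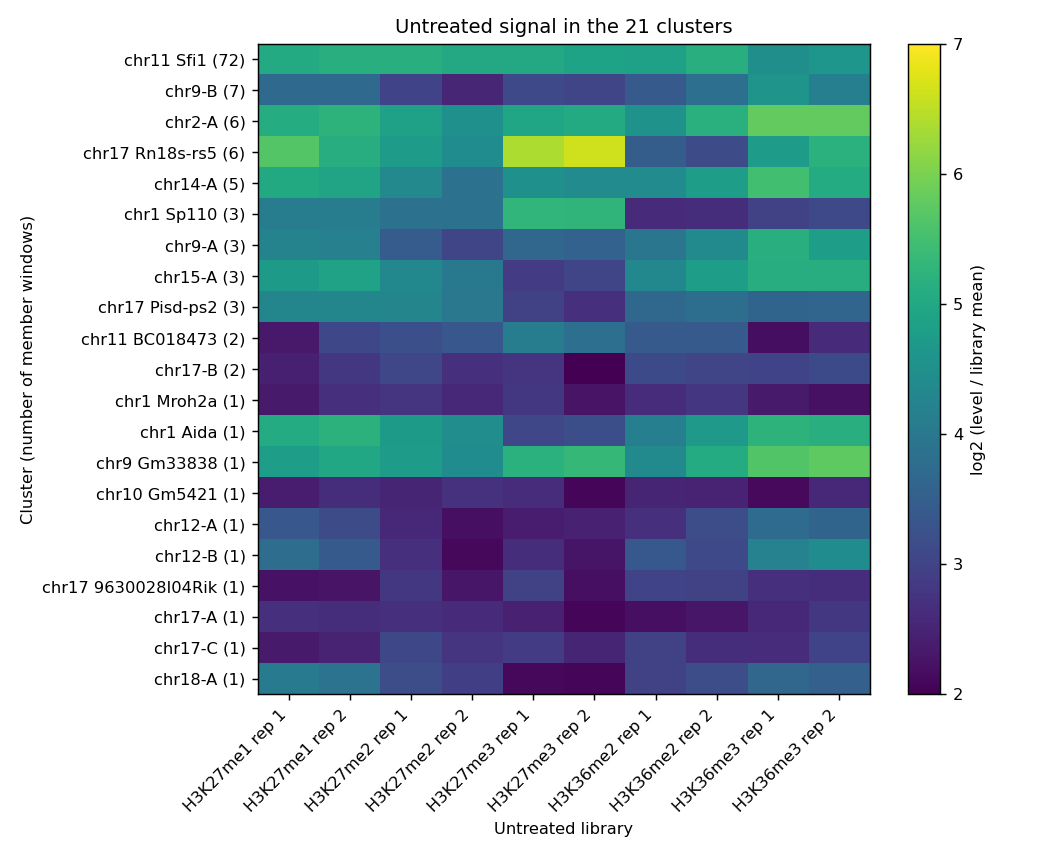
Untreated level of each cluster (rows, with the number of windows) in each of the 10 untreated libraries (columns), as log2 of the multiple of the library mean. The H3K27me3 libraries are brightest at chr17 Rn18s-rs5 (mean 91.4), and the H3K36me3 libraries at chr2-A (mean 55.5).

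The clusters were not alike in their balance of marks. Of the 21 clusters, H3K36me3 was the highest mark in 10, H3K27me1 in 3, H3K27me3 in 3, H3K36me2 in 3 and H3K27me2 in 2. The H3K36me3 libraries were the shallowest untreated ones, and read counts did not follow depth alike in all clusters. At chr9 Gm33838 H3K36me3 held 541 and 496 reads and H3K27me1 held 582 and 548. At chr11 Sfi1 H3K36me3 held 17480 and 16292 and H3K27me1 held 50948 and 43330. The part of library depth in the order of marks, here and below, was not tested. The widest imbalance was at chr17 Rn18s-rs5, with H3K27me3 at 91.4 ± 11.0, H3K27me1 at 42.5 ± 11.3 and H3K36me2 at 9.96 ± 1.59 (SD, n = 2), a ratio of 9.18 between the highest and the lowest mark. At chr1 Sp110 H3K27me3 was 38.9 ± 0.44 and H3K36me2 6.14 ± 0.18, a ratio of 6.34. The opposite balance was found at chr15-A, with H3K36me3 at 34.7 ± 0.30 and H3K27me3 at 7.80 ± 0.70, and at chr1 Aida, with 36.6 ± 1.21 and 8.82 ± 0.60. At chr11 Sfi1 the 5 marks lay within a ratio of 1.44, from 23.6 ± 1.48 for H3K36me3 to 34.1 ± 1.17 for H3K27me1.

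Of the 11 clusters without a gene of the RefSeq table, H3K36me3 was the highest mark in 8 and H3K27me2 the lowest in 6. At chr14-A these were 39.3 ± 8.06 and 17.6 ± 3.88, at chr9-A 31.9 ± 5.45 and 9.62 ± 1.89, and at chr9-B 20.9 ± 4.20 and 6.89 ± 1.56 (SD, n = 2). H3K27me1 was the highest mark and H3K27me3 the lowest at chr17 Pisd-ps2, at 19.7 ± 0.12 and 7.17 ± 0.96, and at chr18-A, at 15.8 ± 1.32 and 4.29 ± 0.03.

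Within the 72 windows of chr11 Sfi1 H3K27me3 ran from 7.02 to 59.5 with a median of 30.5, H3K36me2 from 13.0 to 63.3 with a median of 31.0, and H3K36me3 from 8.65 to 119 with a median of 19.9. Among the 122 windows the highest by geometric mean of the untreated values was in this cluster, at chr11:3193001-3194000 in Sfi1. It held H3K36me3 at 113 and 125, H3K27me1 at 71.5 and 69.3, H3K27me2 at 63.7 and 50.3, H3K27me3 at 64.8 and 54.2, and H3K36me2 at 57.9 and 68.6 in the 2 libraries of each mark. Across the 72 windows the Spearman rho was 0.799 for H3K36me2 with H3K36me3 and 0.012 for H3K27me1 with H3K27me3. Over the 42 windows that flank the clusters, 3 were under 1 times the mean in all 10 untreated libraries and 18 were at 2 or more times the mean in all 10.

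**Figure D2:**
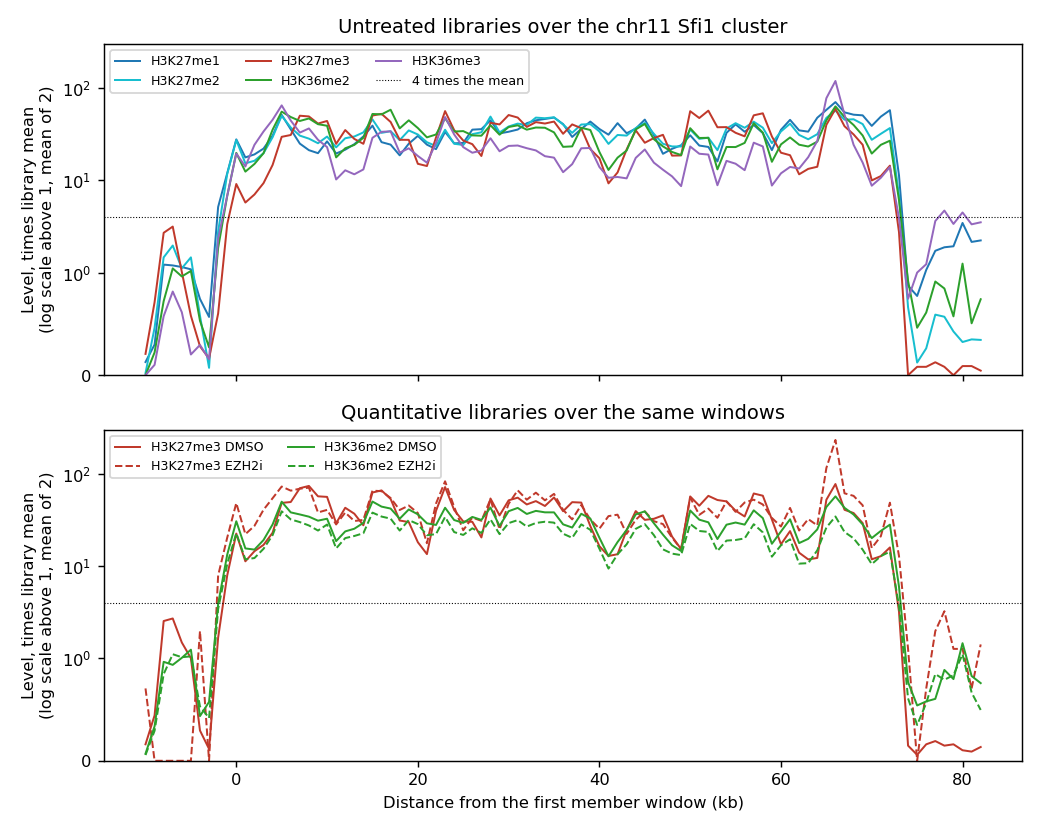
Level over chr11 Sfi1 as a multiple of the library mean (log scale above 1, mean of 2 libraries) by distance from its first window in kb, for the 5 marks in untreated cells (top) and for H3K27me3 and H3K36me2 after DMSO (solid) and EZH2i (dashed; bottom). All lines lie above the dotted line at 4 across the cluster, and H3K27me3 after EZH2i peaks at 232 in the window where untreated H3K36me3 is 119.

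At chr2-A and chr17 Rn18s-rs5, where the rule makes every window high as in all clusters, the levels were uneven. The 6 windows of chr17 Rn18s-rs5 held H3K27me3 between 69.4 and 126 in untreated cells. It ran from 69.4 to 93.3 in the 3 that overlap a gene of the RefSeq table and from 73.4 to 126 in the 3 that do not. The 6 windows of chr2-A held H3K36me3 between 19 and 108. Its highest window, chr2:98666001-98667000, had H3K36me3 at 102 and 114, and H3K27me3 at 65.7 and 75.9. At the other end of the order, the window of chr10 Gm5421 had the lowest geometric mean of the 122, with all 10 values between 4.27 and 6.53. The 5 windows nearest inside the threshold had lowest values from 4.00 to 4.27, and the 5 nearest outside had 3.91, 3.90, 3.66, 3.64 and 3.63.

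The quantitative libraries first show how much H3K27me3 signal was left on the spike-in scale, on which reads are multiplied by the authors' factor. No input or control library is among the samples, so the part of unspecific reads in this signal was not tested. Over the 122 windows the mean was 1845 and 1323 after DMSO and 11.5 and 9.57 after EZH2i. This is a log2 difference of -7.22 (SE 0.27), or a 149-fold fall, whereas the mean over all autosomal windows fell 535-fold, from 51.3 and 37.6 to 0.0959 and 0.0702. Each of the 122 windows fell by limma at a Benjamini-Hochberg adjusted p under 0.05, as did 761700 of the 761703 windows tested (100%). The fitted log2 changes of the 122 windows ranged from -9.30 to -5.16, with a median of -7.86 against -6.18 over all windows tested, on log2 values to which 1 had been added, a scale that shortens the fall of windows with low DMSO signal.

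The fall differed between clusters. On the spike-in scale both EZH2i libraries were below both DMSO libraries in 21 of 21 clusters, and the fold ranged from 46.7 to 952 with a median of 221. It was smallest at chr2-A, from 2448 and 1372 after DMSO to 57.8 and 26.7 after EZH2i. It was 55.1-fold at chr9 Gm33838, 56.3-fold at chr12-A and 61.7-fold at chr17 Rn18s-rs5. At chr11 Sfi1 the fall was 443-fold, from 1898 and 1438 to 4.23 and 3.28. It passed the genome-wide 535-fold at chr1 Sp110 (756-fold), chr10 Gm5421 (795-fold, on 1 and 4 reads) and chr11 BC018473 (952-fold, on 3 and 18 reads). Window reads at chr2-A were 2471 and 2442 after DMSO and 1432 and 1618 after EZH2i. The part of library depth in these folds was not tested.

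Relative to the library mean, the 122 windows held a larger part of the little H3K27me3 signal that remained. They held 0.178% and 0.174% of window reads after DMSO. After EZH2i they held 0.594% (95% Wilson interval 0.579 to 0.610) and 0.675% (0.663 to 0.688); the intervals cover counting error only. The mean level was 36 and 35.2 times the library mean after DMSO and 120 and 136 times after EZH2i, a log2 difference of 1.85 (SE 0.09). Both EZH2i libraries stood above both DMSO libraries, but with 2 against 2 no exact permutation test can go below 0.333. The EZH2i H3K27me3 libraries were shallow, with 0.976 and 1.75 M window reads (M, 1000000 reads), and a window of the 122 held a median of 16.5 and 33 reads in them.

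The difference was larger outside chr11 Sfi1 than in it. In chr11 Sfi1 the mean level was 37.0 and 38.2 after DMSO and 44.1 and 46.8 after EZH2i, a log2 difference of 0.27 (SE 0.05). In the other 50 windows it was 34.5 and 30.8 after DMSO and 229 and 265 after EZH2i, a log2 difference of 2.92 (SE 0.13). The windows of chr2-A and chr17 Rn18s-rs5 supplied 76.0% and 82.5% of that EZH2i total, and the median of the 50 windows was 14.5 and 12.3 after DMSO and 78.3 and 52.2 after EZH2i. In the 38 windows outside all 3 of these clusters the mean was 17.1 and 15.2 after DMSO and 72.3 and 61.1 after EZH2i, a log2 difference of 2.04 (SE 0.15). Without chr2-A and chr17 Rn18s-rs5, a split chosen after the values were seen, the difference over the rest of the 122 windows was 0.81 relative to the library mean and -8.26 on the spike-in scale.

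**Figure D3:**
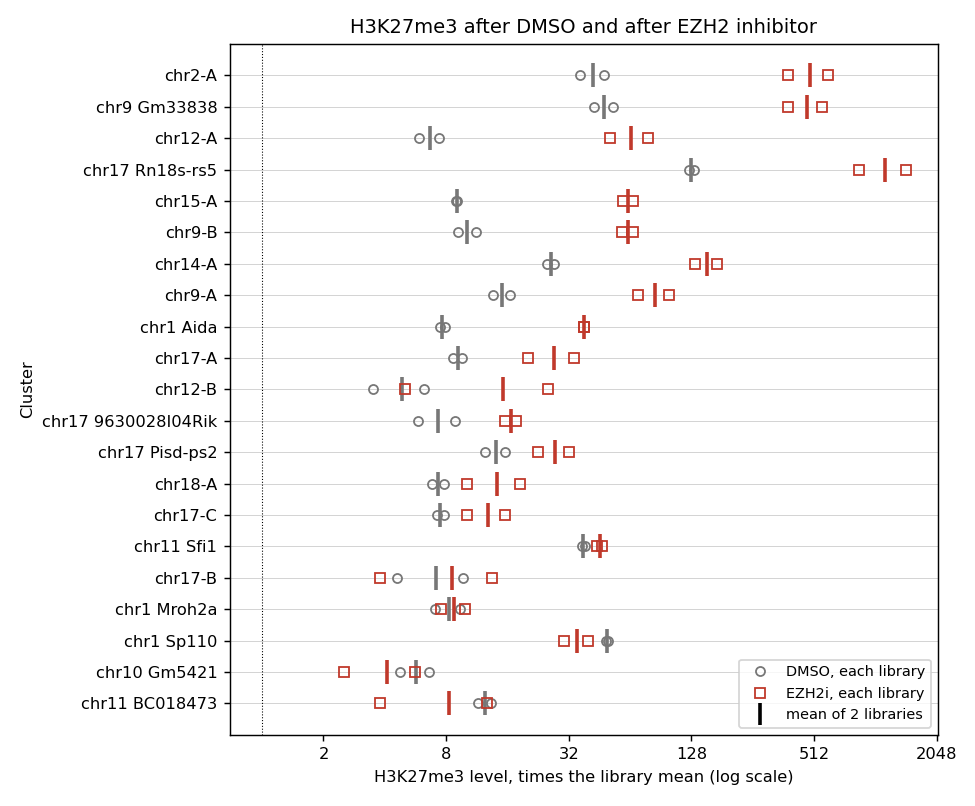
H3K27me3 level of each cluster as a multiple of the library mean (log scale) in each DMSO library (circles) and each EZH2i library (squares), with bars at the mean of 2. The clusters are sorted by the log2 difference, from 3.52 at chr2-A (top) to -0.83 at chr11 BC018473 (bottom); in 5 clusters the groups overlap.

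Window by window, both EZH2i libraries were above both DMSO libraries in 68 of the 122 windows (55.7%), against 11.8% of all windows tested. They were below in 12 of 122 (9.84%), against 40.4% of all windows tested. In chr11 Sfi1 lay 28 of the 68 and 9 of the 12. The shares over all windows tested depend on the filter of 20 reads over 4 libraries. Those reads came mostly from DMSO, with 21.3 and 27.5 M window reads against 0.976 and 1.75 M after EZH2i. With a read required in each library, limma called 32.1% of all windows tested higher and 4.05% lower. A lone read is 2.52 and 1.41 times the library mean after EZH2i, so that filter keeps only windows above the mean there. The fitted log2 difference had a median of 0.58 over the 122 windows and of -0.56 over all windows tested. The limma test itself called 0 of the 122 windows, and 0% of all windows tested in either direction, on this scale. Without EZH2i replicate 1 it called 61 of the 122 higher (12.8% of all windows tested) and 3 lower (45.8% of all). Without EZH2i replicate 2 it called 54 higher (18.3% of all) and 10 lower (56.5% of all). At an unadjusted p under 0.05 were 43 of the 122 windows and 203732 of all 761703 windows tested (26.7%). With limma-voom on the recovered reads 33 of the 122 were called higher (0.176% of all windows tested) and 0 lower (0.947% of all). These 33 were all 6 windows of chr2-A, all 6 of chr17 Rn18s-rs5, all 5 of chr14-A, 6 of 7 of chr9-B, all 3 of chr9-A, all 3 of chr15-A, the windows of chr1 Aida, chr9 Gm33838 and chr12-A, and 1 of 72 of chr11 Sfi1. Dividing instead by the library's median over windows with a read, which is a lone read in both EZH2i H3K27me3 libraries, shifted the median over all windows tested to -1.41 and that over the 122 windows to -1.01. On that scale limma called 28 of the 122 lower (39.0% of all windows tested) and 8 higher (0.0415%), of which 25 and 0 lay in chr11 Sfi1. The 8 were 4 windows of chr2-A and 1 each of chr9 Gm33838, chr9-B, chr12-A and chr14-A. The sign of the fitted difference changed between the 2 references in 56 of the 122 windows (45.9%, against 20.9% of all windows tested), 44 of them in chr11 Sfi1. It was higher by both in 32 (26.2%, against 2.94%), all outside chr11 Sfi1, and lower by both in 34 (27.9%, against 76.1%). On the spike-in scale the median lay below the mean after DMSO (29.7 and 23.6 against 51.3 and 37.6). After EZH2i it lay above the mean (0.242 and 0.099 against 0.0959 and 0.0702). Division by the median therefore lowers the difference of each window, and 0 windows turned from lower to higher. The sign changes are no separate test of direction. The order of the clusters by log2 difference of their mean levels is left as it is by a constant per library.

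There were 9 clusters, with 33 windows, that stood 4-fold or more higher after EZH2i relative to the library mean, by 4.96- to 11.5-fold. This cut was set after the values were seen, and no cluster lay between 2.86- and 4.96-fold. At chr2-A the level was 47.7 and 36.5 after DMSO, on 2471 and 2442 window reads, and 603 and 380 after EZH2i, on 1432 and 1618. At chr17 Rn18s-rs5 it was 131 and 124 after DMSO, on 6791 and 8304 window reads, and 850 and 1444 after EZH2i, on 2020 and 6139. In both, the lower EZH2i library was more than 6 times the higher DMSO library. The 3 windows over Rn18s-rs5 stood at 110 and 104 after DMSO and 788 and 1203 after EZH2i. The 3 without a gene of the RefSeq table stood at 153 and 144 after DMSO and 912 and 1685 after EZH2i. At chr9 Gm33838 H3K27me3 was 52.8 and 42.7 after DMSO, on 456 and 477 reads, and 558 and 382 after EZH2i, on 221 and 271. The DMSO libraries held 21.3 and 27.5 M window reads and the EZH2i libraries 0.976 and 1.75 M. The part of this difference in depth in the relative levels was not tested.

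The clusters at the start of chromosome 9 had lower levels after DMSO and also stood higher after EZH2i. At chr9-B H3K27me3 was 11.2 and 9.12 after DMSO and 66.4 and 58.7 after EZH2i, and at chr9-A it was 16.5 and 13.5 after DMSO and 99.3 and 69.6 after EZH2i. At chr12-A, 111 kb from the first window with a read on its chromosome, it was 7.42 and 5.91 after DMSO and 78.3 and 50.8 after EZH2i, on 31 and 36 reads. The groups did not overlap in any of these 3 clusters.

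The clusters chr14-A, chr15-A and chr1 Aida lay far from the chromosome start. H3K27me3 was 27 and 25.1 after DMSO and 172 and 134 after EZH2i at chr14-A. At chr15-A it was 9.0 and 8.99 after DMSO and 58.9 and 66.3 after EZH2i. At chr1 Aida it was 7.88 and 7.44 after DMSO and 37.9 and 38.1 after EZH2i, on 15 and 27 reads. Again both EZH2i libraries were above both DMSO libraries in each.

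The other 12 clusters, with 89 windows, ranged from 0.562- to 2.86-fold. At chr17 Pisd-ps2 H3K27me3 was 15.6 and 12.4 after DMSO and 32.0 and 22.6 after EZH2i, without overlap. Between 1.67- and 2.86-fold without overlap also lay chr17-C, chr18-A, chr17 9630028I04Rik and chr17-A. Divided by the library median in place of the mean, the fitted difference was below 0 in every window of these 5 clusters, from -0.85 to -0.11. That division lowers the difference of each window, so it is no separate test of direction. At chr17-A H3K27me3 was 9.62 and 8.69 after DMSO and 20.2 and 33.9 after EZH2i, on 8 and 24 reads. At chr17 9630028I04Rik it was 8.81 and 5.82 after DMSO and 17.7 and 15.5 after EZH2i, on 7 and 11 reads. The values at chr17-C and chr18-A rest on 4 reads each in EZH2i replicate 1. In 3 of these clusters H3K27me3 had also differed by more than 1.5-fold between untreated and DMSO libraries. At chr17 Pisd-ps2 it was 7.17 ± 0.96 untreated and 14.0 ± 2.22 after DMSO (SD, n = 2), a ratio of 1.95 next to the 1.93-fold difference between EZH2i and DMSO. The ratio of DMSO to untreated was 1.89 at chr17-A and 1.71 at chr18-A, next to 2.86- and 1.86-fold between EZH2i and DMSO. In the other 18 of the 21 clusters it lay between 0.788 and 1.40, and the part of this difference in the results was not tested.

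At chr1 Sp110 H3K27me3 was 48.7 and 49.6 after DMSO and 30.3 and 40.0 after EZH2i, the cluster where both EZH2i libraries were below both DMSO libraries. At chr11 BC018473 it was 13.2 and 11.5 after DMSO and 3.79 and 12.7 after EZH2i, on 3 and 18 reads, and the groups overlapped. They also overlapped at chr10 Gm5421, chr1 Mroh2a, chr17-B and chr12-B, each with no more than 4 reads in EZH2i replicate 1.

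H3K36me3 was the highest untreated mark in 8 of the 9 clusters that stood 4-fold or more higher and in 2 of the other 12. The exception among the 9 was chr17 Rn18s-rs5, where H3K27me3 was the highest. The untreated H3K36me3 level ran from 12.8 to 55.5 in the 9 and from 4.90 to 23.6 in the 12. The untreated H3K36me3 libraries were the shallowest untreated ones, with 26.5 and 22.6 M window reads. Over the 21 clusters the Spearman rho of the H3K27me3 log2 difference was 0.799 with the untreated H3K36me3 level, 0.565 with H3K27me1, 0.504 with H3K36me2, 0.288 with H3K27me3 and 0.261 with H3K27me2. These are descriptions of 21 clusters that share the same libraries, and any part of sequence, mapping or library depth in them was not tested. Within chr11 Sfi1 the order was another one: over its 72 windows the rho of the fitted H3K27me3 difference was 0.107 with the untreated H3K36me3 level, 0.439 with H3K27me1 and -0.567 with H3K27me3. The difference subtracts H3K27me3 after DMSO, so its rho with untreated H3K27me3, the same mark, is not independent of that level.

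H3K36me2, the other mark followed after the inhibitor, passed the test in none of these windows. On the spike-in scale its mean was 7408 and 6194 after DMSO and 6281 and 5124 after EZH2i, a log2 difference of -0.26 (SE 0.20). The groups overlapped, and the whole-genome mean overlapped as well, at 340 and 225 after DMSO and 425 and 238 after EZH2i. By limma 0 of the 122 windows were called, against 0.0159% of all 1969638 windows tested lower and 0.693% higher. None of the 122 reached an unadjusted p under 0.05, against 5.12% of all windows tested, and limma-voom called 0 with 11 at an unadjusted p under 0.05, against 2.66% of all. Both EZH2i libraries were below both DMSO libraries in 40 of the 122 windows (32.8%), against 1.31% of all windows tested, and above in 1, against 19.2%.

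Relative to the library mean, H3K36me2 over the 122 windows was 21.8 and 27.6 after DMSO and 14.8 and 21.5 after EZH2i, a log2 difference of -0.46 (SE 0.32). The EZH2i libraries were the lower ones in each replicate number, and both lay below both DMSO libraries. Both were below in 68 of 122 windows (55.7%), against 18.3% of all windows tested, and above in 2, against 27.8%. Of the 68, 51 lay among the 72 adjoining windows of chr11 Sfi1. By limma 0 of the 122 windows were called, against 0.000102% of all windows tested lower and 0% higher, and 86 of the 122 (13.5% of all windows tested) had an unadjusted p under 0.05. Without DMSO replicate 1 limma called 34 lower (0.0195% of all windows tested) and 0 higher (0.0458%), and without DMSO replicate 2 it called 1 lower (0.000776%) and 0 higher (0.000931%). With limma-voom 25 of the 122 were called lower (0.00168% of all windows tested), 22 of them in chr11 Sfi1. With the replicate number as a block 54 were called lower (0.624% of all windows tested) and 0 higher (1.82%), although the numbers are not known to pair the libraries. Over the 122 windows the deviations of same-numbered libraries correlated at 0.789, and over all windows tested at 0.208. Replicate 1 was the deeper library in both arms, with 83.0 against 49.7 M window reads after DMSO and 110 against 54.4 M after EZH2i. The part of depth in this correlation, in the block calls and in the relative difference was not tested.

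**Figure D4:**
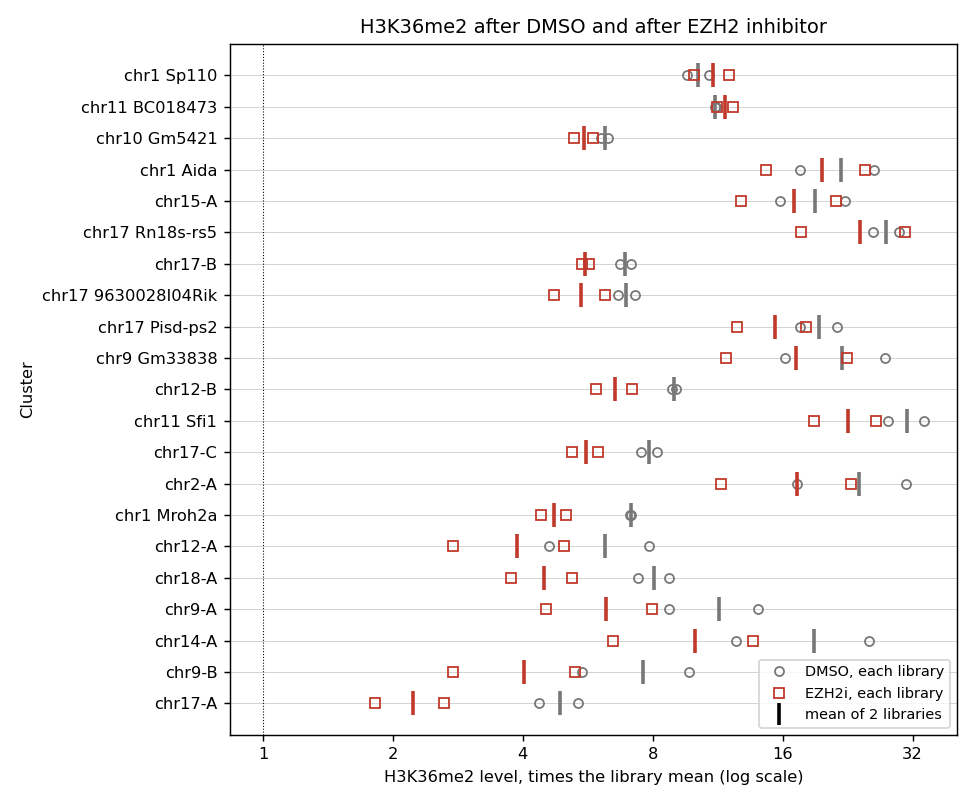
H3K36me2 level of each cluster as a multiple of the library mean (log scale) in each DMSO library (circles) and each EZH2i library (squares), with bars at the mean of 2, sorted by the log2 difference. The groups overlap in 9 of 21 clusters, both EZH2i libraries are lower in 11, and they are higher at chr11 BC018473.

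By cluster, both EZH2i libraries were below both DMSO libraries for relative H3K36me2 in 11 of 21 and above in 1. At chr11 Sfi1 the level was 28.0 and 34.1 after DMSO and 18.9 and 26.3 after EZH2i. At chr9-B it was 5.50 and 9.68 after DMSO and 2.76 and 5.29 after EZH2i. The largest relative difference, a log2 of -1.15 (SE 0.31), was at chr17-A, with 5.37 and 4.36 after DMSO and 1.82 and 2.63 after EZH2i. At chr17 Rn18s-rs5 it was 25.9 and 29.7 after DMSO and 17.7 and 30.7 after EZH2i, and the groups overlapped. This cluster also differed between untreated and DMSO libraries, with H3K36me2 at 9.96 ± 1.59 untreated and 27.8 ± 2.69 after DMSO (SD, n = 2), a 2.79-fold difference whose cause was not tested. In the other 20 clusters the ratio of DMSO to untreated H3K36me2 lay between 0.611 and 1.66.

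Windows high in H3K27me3 alone, 90808 in number, gave the reverse picture for H3K27me3. Their relative level was 6.88 and 6.83 after DMSO and 4.69 and 5.11 after EZH2i, a log2 difference of -0.49 (SE 0.06), and both EZH2i libraries were above both DMSO libraries in 4.22% of those windows. Windows high in H3K36me2 alone, 13421 in number, had relative H3K27me3 at 2.21 and 2.15 after DMSO and 2.61 and 2.33 after EZH2i, with both EZH2i libraries above in 21.4%. The relative H3K36me2 in those was 3.94 and 3.92 after DMSO and 3.28 and 3.44 after EZH2i, and both EZH2i libraries were below in 60.2%, next to the 55.7% of the 122 windows. The differences between these classes and the 122 windows were not tested.

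All autosomal windows were also sorted by the number of marks that were high. There were 2241405 windows with 0 high marks, 209247 with 1, 11312 with 2, 551 with 3 and 99 with 4. H3K27me3 was among the high marks in 90808 of the windows with 1, 3945 with 2, 216 with 3 and 36 with 4. The classes thus also differ in which marks are high, and the part of this in the values below was not tested. With 0 high marks relative H3K27me3 was 0.759 and 0.766 after DMSO and 0.767 and 0.762 after EZH2i, and the groups overlapped. With 1 it was 3.44 and 3.38 after DMSO and 3.27 and 3.31 after EZH2i, a log2 difference of -0.05 (SE 0.02), with both EZH2i libraries below. Relative H3K27me3 was 2.98 and 2.84 after DMSO and 3.57 and 3.53 after EZH2i in windows with 2 high marks, a log2 difference of 0.29 (SE 0.03). With 3 it was 4.49 and 4.31 after DMSO and 5.51 and 6.66 after EZH2i, a log2 difference of 0.46 (SE 0.14). With 4 it was 6.26 and 5.36 after DMSO and 16.5 and 21 after EZH2i, a log2 difference of 1.68 (SE 0.21). In the classes with 2, 3 and 4 high marks both EZH2i libraries were above both DMSO libraries. This holds relative to the library mean. Division by the library median, which lowers the differences, was not run for the classes.

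**Figure D5:**
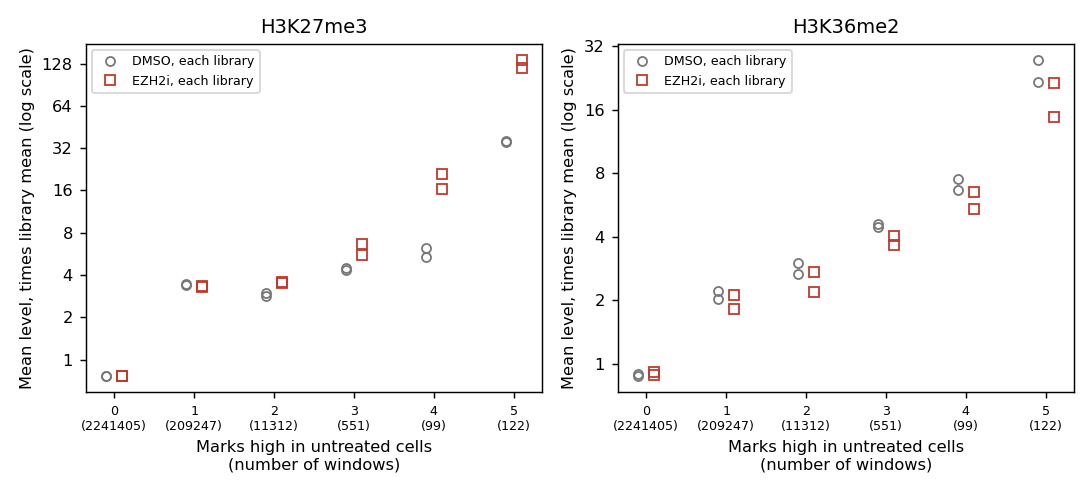
Mean H3K27me3 (left) and H3K36me2 (right) as multiples of the library mean (log scale) in each DMSO library (circles) and each EZH2i library (squares), for windows with 0 to 5 marks high in untreated cells. H3K27me3 in windows with 5 high marks is 36 and 35.2 after DMSO and 120 and 136 after EZH2i.

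The windows were also extreme in libraries the rule did not use. All of the 20 highest windows of the DMSO H3K27me3 libraries, and 59 of the 100 highest, were among the 122. After EZH2i 10 of the 20 highest H3K27me3 windows and 13 of the 100 highest were. For H3K36me2 the 122 windows supplied 95 of the 100 highest after DMSO and 93 of the 100 highest after EZH2i. The H3K36me2 level was at 4 or more times the library mean in 122 and 122 of the 122 windows after DMSO and in 109 and 121 after EZH2i. The same count is not informative for H3K27me3 after EZH2i, where a lone read is 2.52 and 1.41 times the library mean.

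In the authors' peak lists, made from the same untreated libraries, 122 of the 122 windows lay by at least 500 bp in a peak of H3K27me1, of H3K27me2 and of H3K36me2, and 120 in a peak of H3K27me3. A peak of all 4 lists covered 98.4% of the 122 windows, against 2.21% of all autosomal windows.

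Gene lists chosen for repeated sequence met these windows in part. Of 5 listed ribosomal RNA genes and copies, 3 were found on the autosomes of the RefSeq table, and Rn45s and Rn28s were not. Of the 3, Rn18s-rs5 and AY036118 touched a window of the 122, and Rn5s, a 5S rRNA gene on chromosome 8, did not. Over the 85 windows of the 48 annotated 5S genes the untreated level was 0.002 to 0.30 times the library mean, and H3K27me3 was 0.58 and 0.51 after DMSO and 1.51 and 2.89 after EZH2i. Of 9 repeated protein-coding loci, Sfi1, Sp110 and Sp140 touched the 122 windows. Both Pisd pseudogenes did, whereas Pisd itself on chromosome 5 did not. The 1 nuclear copy of mitochondrial DNA found, Gm10925, had no window among the 122, and none of 13 satellite-rich predicted genes was matched in the table. Whether these 13 lie in windows counted here as without a gene was therefore not tested.

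Untreated libraries held 22.6 to 66.4 M window reads, and the 6 quantitative libraries of full depth held 21.3 to 110 M. Over 7 genes of embryonic stem cells H3K36me3 was 1.08 to 7.53 times the library mean and H3K27me3 0 to 2.25 times, and over 7 genes of other lineages they were 0.95 to 2.09 and 4.62 to 13.8 times. Replicates differed by more than sampling noise in all 9 groups, the chi-square over its degrees of freedom being 2.00 to 4.50 in bins of 10 kb, and over the 122 windows their Spearman rho ran from 0.824 for H3K27me3 after EZH2i to 0.982.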

How the data were processed

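ChIP-seq tracks of 18 libraries were analysed. The authors deposited log2 values for 1 kb windows every 500 bp. Per the submitters' processing notes, Trim Galore 0.4.2, Bowtie2 2.2.6.2, SICER and builds mm10 and dm3 were used, with no role or order given. Values were log2 of 1 plus whole reads times a factor of the library; whole reads were recovered for 100% of windows (tolerance 0.02). The factor was 0.0196 to 0.0577 per read in untreated libraries, which held 66.4 and 22.6 M window reads at these 2 ends. In the others it was taken as the authors' spike-in factor. Its derivation is not given in the sources used here. The score of each deposited peak was not used. Read extension and treatment of duplicates are not given there either.

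Values were made linear and divided by the library's autosomal mean. EZH2i and DMSO libraries were compared by limma 3.58.1 (R 4.3.3, two-sided, no covariate) on the deposited log2 values and on log2(relative level + 1), over windows with at least 20 reads in 4 libraries, with Benjamini-Hochberg adjustment over all of them and calls under 0.05. The fits were also run on simulated data with a fixed level of noise. Changes were placed only in windows with more reads, so that run does not cover windows with few reads. Clusters were joined at 10 kb. Named were the 10 clusters with most windows, the 5 windows highest and the 5 lowest by geometric mean of the untreated values, and genes of the lists. Replicate numbers were not taken to pair libraries, since only 2 pairs exist. The windows, gene lists and tests were chosen with earlier results of these data known; the Pisd list was added after the values were seen. Chromosomes X and Y were left out of the main set. Alternatives changed the threshold, window grid, normalization, filter, pseudocount, replicates and model.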

Additional observations from a re-analysis of the deposited data

Results flagged for a closer look

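Outside the autosomes, 3 windows on chromosome X met the same rule in all 10 untreated libraries, out of 171031 windows there; chromosome X was not part of the 122 windows. They lie at chrX:112370001-112372000 in Apool (2 windows) and at chrX:169994001-169995000 with no gene of the RefSeq table. On chromosome Y 0 of 91744 windows met it.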

How the results depend on the processing

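For H3K27me3 relative to the library mean, limma called 0 of the 122 windows. With other settings it called 20 higher with no filter on reads (0.731% of all windows tested), 21 with a mean-variance trend (0.422%), 31 with pseudocount 0.25 (0.391%) and 33 with limma-voom (0.176%), and 0 lower, against 3.03%, 19.7%, 18.5% and 0.947% of all. With pseudocount 4, and with the replicate block, it called 0 in either direction (0% of all). With a read required in each library 48 were called, 47 higher (32.1% of all) and 1 lower (4.05%), and with division by the library median 36, 8 higher (0.0415%) and 28 lower (39.0%). Requiring a read in each library keeps only windows above the mean of both EZH2i libraries. Leaving out 1 library gave 0 to 64, the 64 both without EZH2i replicate 1 (61 higher, 12.8% of all; 3 lower, 45.8%) and without EZH2i replicate 2 (54 higher, 18.3%; 10 lower, 56.5%). For relative H3K36me2, limma called 0, the trend 6 (0.000508% of all windows tested), limma-voom 25 (0.00168%), the replicate block 54 (0.624%), and leaving out 1 library gave 0 to 34 (34 without DMSO replicate 1, 0.0195%; 1 without DMSO replicate 2, 0.000776%). All of these calls were lower. With a library left out, its arm's lone library is assumed to vary like the other group. The causes, and any part of library depth in these calls, were not tested. The deviations of same-numbered libraries correlated over all windows tested at 0.208 for relative H3K36me2 and 0.0184 for relative H3K27me3, and over the 122 windows at 0.789 and 0.115 (0.814 for H3K36me2 on the spike-in scale), and the block changed no call for H3K27me3 or for H3K36me2 on the spike-in scale.

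The H3K27me3 difference of the windows' mean on the spike-in scale was -8.51 by the median over windows, -6.47 by the mean over clusters, -6.14 without chr11 Sfi1 and -8.26 without chr2-A and chr17 Rn18s-rs5, the last chosen after seeing the data. Relative to the library mean these were 0.56, 2.60, 2.92 and 0.81. Division by the library median turned the sign of relative H3K27me3 to -1.36 at chr1 Mroh2a, -1.29 at the first window of chr17-B, -1.24 at the second, -0.40 at chr17 9630028I04Rik, -0.11 at chr17-A, -0.79 at chr17-C, -0.65 at chr18-A, -0.22 at chr12-B, -0.57, -0.85 and -0.58 at the 3 windows of chr17 Pisd-ps2 and -0.13 at the last window of chr9-B. In chr11 Sfi1 it turned the sign of 44 windows and gave -1.04, -0.55 and -0.082 at the windows starting at 3132001, 3192001 and 3193001. With 1 library left out, the difference ranged from -0.41 to 0.61 at that window of chr17-B, from -0.91 to 0.0067 at chr10 Gm5421 and from -0.11 to 0.26 at chr1 Mroh2a. Thresholds of 3, 5 and 8 times the mean gave 162, 105 and 82 windows. The depth of the EZH2i H3K27me3 libraries limits single windows, 7 of which held under 4 reads in replicate 1.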
